A study of Mus musculus with 23 samples.

Results

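DC1b cells are spleen dendritic cells (DC) that the labels describe as CD8Int CD172+, sorted from wild type Balb/C mice. The account concerns their libraries from mice labelled TLI treated, 4 pools, set against those from Untreated mice, 2 pools, which makes 6 of the 23 libraries of the series. They were taken as every library whose label names the DC1b population, so no measured value entered the choice. The abbreviation is not spelled out in the labels. It is usually read as total lymphoid irradiation, a course of irradiation directed at the lymphoid organs, and neither dose, schedule, interval before sorting nor age of the mice is given for these libraries in the sources used here. Each library came from a pool of mice and a small number of sorted cells whose cDNA was amplified before sequencing. Batch 1, as labelled, holds TLI pools 1 and 2 beside both untreated pools. Batch 2 holds TLI pools 3 and 4 and no untreated library.

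Dendritic cells take up antigen and present it to T cells. In mouse spleen, conventional type 1 cells (cDC1) carry CD8 and Xcr1 and depend on Irf8 and Batf3, conventional type 2 cells (cDC2) carry CD172 (the product of Sirpa), and plasmacytoid DC, which release type I interferon, are specified by the transcription factor Tcf4 and marked by Siglech. DC1b cells were sorted on intermediate CD8 together with CD172, so that genes of each of these types can be looked for in the same libraries.

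Library totals in units of 1e6 estimated counts lay between 21.2 and 36.1 in the 6 DC1b libraries, within the 19.3 to 37.0 of all 23. Values are given as CPM, counts per 1e6 counts of the library after scaling with edgeR's TMM factors, and 3 counts in a library, the floor used below, correspond to 0.0898 to 0.144 CPM. Amplified reads are not independent molecules, so floors and counting intervals cover counting error only. The genes of the sorted proteins did not hold one level across the libraries. Cd8a measured 336, 352, 85.4 and 0.363 CPM in TLI pools 1 to 4 and 132 and 347 CPM in untreated pools 1 and 2. Sirpa measured 162, 145, 5.51 and 7.26 CPM in the TLI pools, in the same order, and 11.6 and 80.9 CPM in the untreated pools. TLI pool 4 therefore had almost no Cd8a transcript, and both batch 2 libraries had less Sirpa than either untreated library. Genes shared by antigen-presenting cells were present throughout. Cd74, the invariant chain of MHC class II, lay at 20714, 30780, 9711 and 6073 CPM in the TLI pools and at 15547 and 24011 CPM in the untreated pools. Of the variance among the 6 libraries on the log2 scale, the first principal component took 32% and placed the batch 2 TLI libraries (-201.1 and -159) apart from the batch 1 TLI (35.1 and 53.4) and untreated libraries (135.9 and 135.7). The second component, 23%, placed the batch 1 TLI libraries at 130 and 172.2 and the untreated ones at -122.2 and -97.9. Transcript level is not surface protein, and Sirpa was also low, at 11.6 CPM, in untreated pool 1. In the TLI libraries of DC2 cells (CD8lo CD172hi by the labels) it ranged from 8.78 to 281 CPM. Still, with low Sirpa in both batch 2 libraries and almost no Cd8a in TLI pool 4, whether these 2 libraries hold the same cells as the others is in doubt. They were kept under their label DC1b, and values without them are given for the main results.

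The question was which genes differ between DC1b cells of TLI treated and untreated mice. Among the genes that fell were the transcription factors Tcf4 and Runx2, the 2 genes past the threshold of the 25 on a list of plasmacytoid DC genes. Among those that rose were the lysozymes Lyz2 and Lyz1, the transcription factor Cebpb, fibronectin (Fn1) and the beta globins Hbb-bs and Hbb-bt. Of 27 monocyte and macrophage genes tested, 26 were fitted higher and 3 passed the threshold, where 0.199% of all genes tested passed as higher. The groups of Cd14, among these 3, overlapped. Of 19597 genes tested, 81 (0.413%) passed a Benjamini-Hochberg adjusted p of 0.05 by the quasi-likelihood test of edgeR, in a fit of all 23 libraries with a term for batch. They were 39 genes higher (0.199%) and 42 lower (0.214%) in TLI. At an unadjusted p under 0.05 there were 2425 genes, and the median fitted log2 fold change over all genes tested was 0.09. The 4 TLI libraries did not overlap the 2 untreated libraries for 73 of the 81 genes, against 8.29% of all genes tested with TLI above and 11.6% with TLI below. The 81 genes were called with these same libraries, so their lack of overlap adds no support. Without the batch 2 libraries, in the 4 batch 1 libraries alone, 79 of the 81 genes could be tested and each kept its direction, but 0 genes passed the threshold there with edgeR, with 2021 at an unadjusted p under 0.05. The log2 fold change there was -3.48 for Tcf4, -4.54 for Runx2, 3.33 for Lyz2, 3.25 for Cebpb, 2.23 for Ccl6 and 1.47 for Cst3. The list median there was -3.75 for plasmacytoid DC, 3.26 for monocytes and macrophages and 1.26 for cDC1, against -0.01 for all genes. The number of genes past the threshold fell to 3 without untreated pool 1 and to 11 without untreated pool 2, so it rested on both untreated libraries. The labels call the libraries separate pools of mice and give no number of mice in each.

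**Figure D1:**
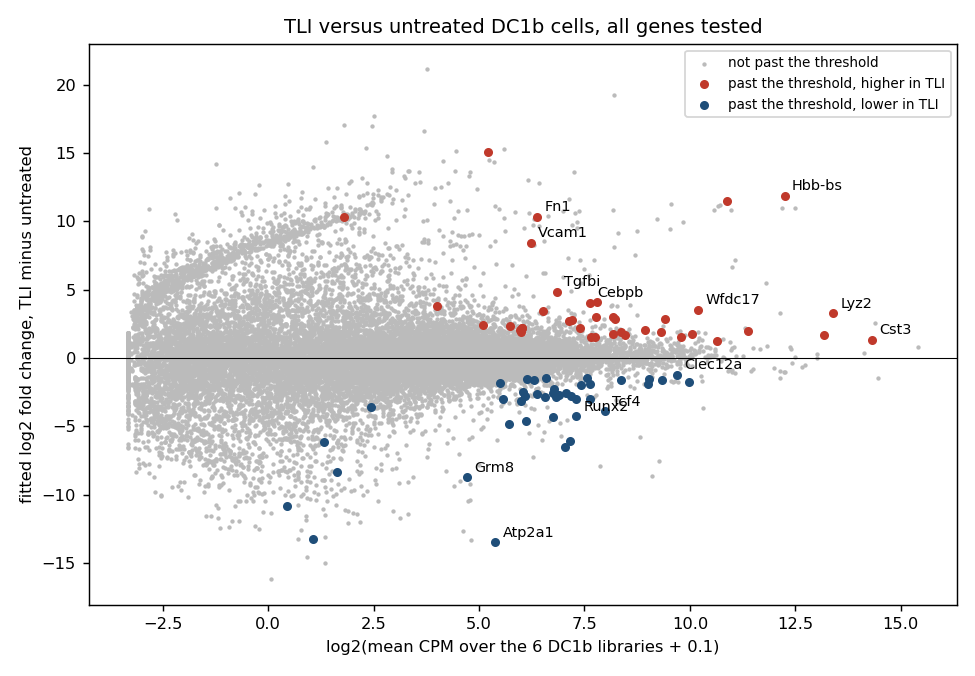
Fitted log2 fold change (TLI minus untreated DC1b, vertical axis) against the mean level of each of the 19597 genes tested (horizontal axis, log2 of mean CPM over the 6 libraries plus 0.1). The 39 genes past the threshold and higher in TLI are red, the 42 lower are blue, and genes near the arcs on the left have counts of 0 in one of the groups, so their fitted values are not measures of size.

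Tcf4, which directs the plasmacytoid fate, had 71.6, 47.5, 33.6 and 25.9 CPM in TLI pools 1 to 4 and 868 and 465 CPM in the untreated pools. Every TLI library lay below both untreated libraries, with means of 44.7 ± 20.1 (SD, n = 4) and 667 ± 285 CPM (SD, n = 2) and a fitted log2 fold change of -3.90 (standard error 0.52, edgeR adjusted p = 0.00294). Runx2, a Runt family factor of which plasmacytoid DC have high levels, spans positions 44495987 to 44814797 of chromosome 17 (GRCm38). Its levels were 17.7, 15.3, 83.8 and 57.2 CPM in the TLI pools against 447 and 324 CPM in the untreated pools, a log2 fold change of -4.26 (standard error 0.55, edgeR adjusted p = 0.00294). The TLI libraries were again all lower, and those of batch 2 were less far below than those of batch 1. An exon of Runx2os1 on the other strand overlaps Runx2, and since no source says that strand was used in counting, the reads of such pairs cannot be told apart. Mef2c, a MADS box factor, had 36.7, 47.1, 75.7 and 107 CPM in the TLI pools and 325 and 211 CPM in the untreated pools, with a log2 fold change of -2.58 (standard error 0.41, edgeR adjusted p = 0.00913).

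Most of the plasmacytoid DC list was lower in level, though few members passed the test. All 25 listed genes were tested, 2 were past the threshold (Tcf4 and Runx2, both lower), 0 were higher, and 14 were lower at an unadjusted p under 0.05, where 6.22% of all genes tested were. In 24 of the 25, all but Irf7, the TLI libraries lay below both untreated libraries, where 11.6% of all genes tested did. This list, like the others, was chosen with earlier results of these data known, so its counts are descriptive and no independent support. The median fitted log2 fold change of the list was -3.90, against 0.09 for all genes tested, and a median with genes held at the floor of 3 counts gave the same -3.90, against 0.12. The summed level of the list was 1326, 1090, 614 and 601 CPM in TLI pools 1 to 4 and 8509 and 12292 CPM in the untreated pools. A lower sum in sorted bulk cells can reflect fewer cells of a type or less RNA per cell, and these cannot be told apart here.

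Siglech, the surface lectin by which plasmacytoid DC are recognised, spans positions 55768178 to 55778925 of chromosome 7. It fell short of the threshold at 33.4, 32.1, 10.3 and 0.297 CPM in TLI against 981 and 1653 CPM in untreated libraries, a log2 fold change of -5.78 (standard error 1.17, edgeR adjusted p = 0.0505). Cox6a2, a cytochrome oxidase subunit that overlaps Itgad on the other strand, had 16.3, 6.03, 13.4 and 0 CPM in TLI and 1441 and 2242 CPM in untreated libraries (edgeR adjusted p = 0.0724). Klk1, a kallikrein protease, had 2.17, 10.5, 0 and 14 CPM against 1031 and 2253 CPM (edgeR adjusted p = 0.127). None of these groups overlap, and the means stand 69.3-fold apart for Siglech, 206-fold for Cox6a2 and 246-fold for Klk1. Cd300c, an activating receptor, had 2.46, 3.96, 0.12 and 0 CPM in TLI and 135 and 115 CPM in untreated libraries. Spib, an Ets factor of plasmacytoid DC and B cells, had 17.7, 0.49, 0 and 0.165 CPM against 134 and 287 CPM, and Blnk, an adaptor that both cell types use, had 23.7, 31.9, 6.01 and 0.297 CPM against 328 and 424 CPM. Their edgeR adjusted p were 0.111, 0.226 and 0.322, so the large distances in level came with a spread across all 23 libraries that the test did not pass. Irf7, the interferon regulatory factor of plasmacytoid DC, overlapped between the groups, at 80.1, 79.9, 77.3 and 40.6 CPM in TLI and 64.9 and 90.4 CPM in untreated libraries.

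**Figure D2:**
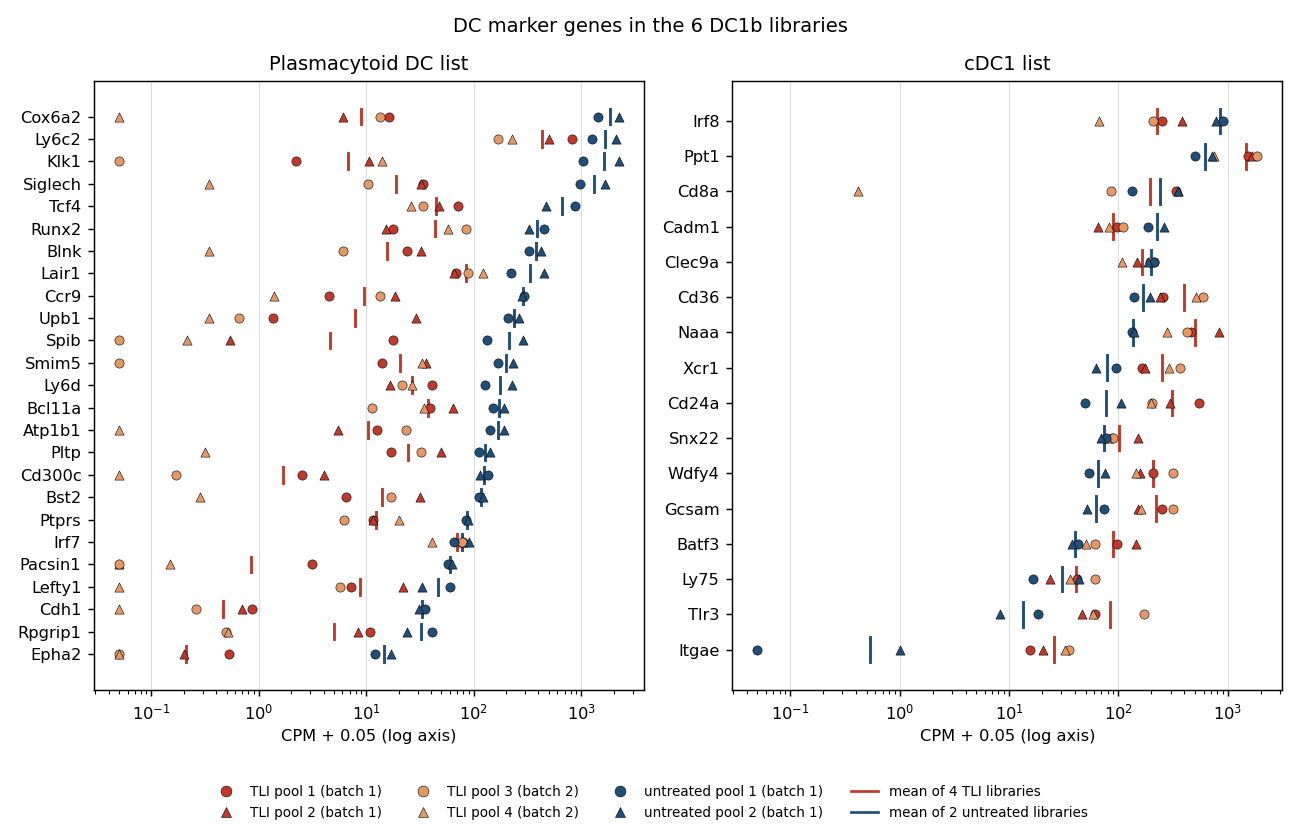
CPM plus 0.05 (horizontal log axis) of the 25 genes of the plasmacytoid DC list and the 16 of the cDC1 list in the 6 DC1b libraries, ordered by untreated mean. Points are libraries and vertical strokes group means. In the plasmacytoid panel 24 of 25 genes have the TLI points left of both untreated points, and in the cDC1 panel 11 of 16 have them to the right. Of all genes tested, 11.6% had the TLI libraries below both untreated ones and 8.29% above.

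The start sites of plasmacytoid DC genes are shown because these genes were lower together with Tcf4, an E protein, a class of factors that bind the E-box, of which CAGGTG is a preferred form. The motif searched was CAGGTG on both strands, which reads CACCTG on the other, within 250 bases before and 50 bases after RefSeq start sites (GRCm38.p6). A window was found for 19 of the 25 listed genes, of which 6 held the motif (31.6%: Siglech, Ccr9, Klk1, Bst2, Cd300c and Blnk), where 22.6% of 27025 genes with a window held it. Of the 14 named decreases described below, 10 had a window and 4 of these held the motif, and of the named increases 10 had a window and 0 held it. The 3 windows printed all hold the motif and belong to listed genes with no exon shared with a neighbour. They are written 5′ to 3′ on the strand of the gene, with the motif in capitals: Siglech at chr7:55767934-55768233 on the plus strand, Cd300c at chr11:114960458-114960757 on the minus strand, and Blnk at chr19:40994172-40994471 on the minus strand.
Siglech: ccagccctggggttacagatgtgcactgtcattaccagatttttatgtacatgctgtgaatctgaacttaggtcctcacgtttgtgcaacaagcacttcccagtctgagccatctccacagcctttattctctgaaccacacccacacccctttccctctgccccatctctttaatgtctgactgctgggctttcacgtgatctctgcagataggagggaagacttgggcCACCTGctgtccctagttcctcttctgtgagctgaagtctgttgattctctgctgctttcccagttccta
Cd300c: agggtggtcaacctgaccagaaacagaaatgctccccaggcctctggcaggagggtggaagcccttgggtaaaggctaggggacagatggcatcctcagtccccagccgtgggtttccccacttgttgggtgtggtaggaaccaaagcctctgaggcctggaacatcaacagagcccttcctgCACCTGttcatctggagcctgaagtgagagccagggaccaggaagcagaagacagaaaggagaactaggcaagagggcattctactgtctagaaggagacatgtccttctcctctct
Blnk: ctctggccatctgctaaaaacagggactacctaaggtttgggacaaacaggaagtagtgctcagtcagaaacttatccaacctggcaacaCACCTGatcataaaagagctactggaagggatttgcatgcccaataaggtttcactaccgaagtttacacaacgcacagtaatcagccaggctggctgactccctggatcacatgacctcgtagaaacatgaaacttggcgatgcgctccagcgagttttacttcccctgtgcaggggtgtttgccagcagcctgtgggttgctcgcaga
The motif begins at position -20 in Siglech, -67 in Cd300c and -160 in Blnk, as CACCTG on the strand printed, with negative positions before the start. A match is a description of the letters in a window and not evidence of binding. Whether Tcf4 acts on these genes was not tested.

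Beyond the factors, the largest decreases by fitted value included genes at or near the floor in TLI. Atp2a1, a calcium pump of muscle that overlaps Rabep2 on the other strand, had 0, 0, 0 and 0.099 CPM in the TLI pools and 94.8 and 155 CPM in the untreated pools. With 3 counts in all TLI libraries together, the ratio of untreated to TLI counts was 4690 with an exact 95% counting interval of 1600 to 22700 (edgeR adjusted p = 0.0245). Grm8, a metabotropic glutamate receptor whose gene spans positions 27275119 to 28135178 of chromosome 6, had 0.144, 0.339, 0.12 and 0.165 CPM in TLI and 90.7 and 64.3 CPM in untreated libraries, a 403-fold distance between means (edgeR adjusted p = 0.00863). D13Ertd608e fell to 2.36, 11.8, 0 and 0 CPM from 288 and 555 CPM (edgeR adjusted p = 0.0420). It is uncertain, since its near copy Gm21762 may share reads with it and fell as well, from 283 and 498 CPM to 2.7, 6.82, 0 and 0 CPM.

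Fyn, a Src family kinase, had 57, 23.1, 26.7 and 25.5 CPM in the TLI pools and 268 and 274 CPM in the untreated pools, with a log2 fold change of -2.83 (standard error 0.44, edgeR adjusted p = 0.00870). P2ry14, a receptor for UDP-glucose, had 80.5, 47.3, 44.2 and 61.4 CPM against 500 and 447 CPM (edgeR adjusted p = 0.0248). Klrd1, which encodes the CD94 chain of a lectin receptor of natural killer cells and some DC, had 50.1, 18.1, 22.2 and 18.5 CPM against 186 and 274 CPM (edgeR adjusted p = 0.0420). Ifnar1, a chain of the type I interferon receptor, had 77.3, 32.6, 21.7 and 9.86 CPM in TLI and 280 and 274 CPM in untreated libraries, a log2 fold change of -2.70 (standard error 0.40, edgeR adjusted p = 0.00667). In these 4 genes each TLI library was below both untreated ones, by a distance wider than the spread within either group. Tex2, Tubgcp5 (a part of the gamma-tubulin complex), Gtf2i (a general transcription factor), Dmxl1, Irf2bp2 and Tsc22d1 completed the 14 largest decreases, with fitted values from -4.59 in Tex2 to -2.77 in Tsc22d1. Tubgcp5, for example, had 12.3, 3.77, 35 and 27.9 CPM against 304 and 265 CPM. Sec61a1, the pore of the translocon, stood at 26.8, 51.1, 27.2 and 19.4 CPM in TLI and 282 and 310 CPM in untreated libraries (edgeR adjusted p = 0.0145), although a predicted gene overlaps it on the other strand. Clec12a, an inhibitory lectin of DC and monocytes, fell by less, from 1076 and 1369 CPM to 597, 667, 505 and 741 CPM (log2 fold change -1.24, standard error 0.24, edgeR adjusted p = 0.0333), and Rnase6, a ribonuclease, from 1238 and 2119 CPM to 655, 504, 648 and 868 CPM (edgeR adjusted p = 0.00667).

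For 6 of the 42 decreases the groups overlapped. Tgfbr1, a receptor of TGF-beta, had 37.1 and 48.1 CPM in the batch 1 TLI libraries, 266 and 406 CPM in those of batch 2 and 253 and 184 CPM in the untreated libraries. Its fitted log2 fold change was -1.91 (standard error 0.37, edgeR adjusted p = 0.0257) but 0.62 for the batch 2 TLI libraries against untreated. St8sia4, a polysialyltransferase, had 230 and 172 CPM in batch 1 TLI libraries, 491 and 705 CPM in batch 2 and 701 and 766 CPM in untreated libraries. Srpk2 and Mbnl1, which act in RNA splicing, the ribosomal protein gene Rpl31 and A230072E10Rik were the others. In 5 of the 6, A230072E10Rik apart, the batch 2 TLI libraries were the ones nearer to the untreated.

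Lyz2, lysozyme of myeloid cells, spans positions 117277331 to 117282321 of chromosome 10. Its levels were 20232, 24122, 8631 and 7647 CPM in TLI pools 1 to 4 and 1633 and 2819 CPM in the untreated pools, means of 15158 ± 8269 (SD, n = 4) and 2226 ± 839 CPM (SD, n = 2). All 4 TLI libraries were above both untreated ones, with those of batch 1 highest, and the fitted log2 fold change was 3.29 (standard error 0.33, edgeR adjusted p = 0.000347). Its neighbour Lyz1, which is similar enough in sequence that reads may be exchanged, had 389, 453, 197 and 183 CPM against 28.9 and 67 CPM (edgeR adjusted p = 0.00294). Cebpb, a C/EBP factor of myeloid cells, had 182, 552, 220 and 164 CPM in TLI and 29.8 and 47.5 CPM in untreated libraries. Its fitted log2 fold change was 4.04 (standard error 0.67, edgeR adjusted p = 0.0122), in a fit whose batch term all populations inform. That value is larger than the 3.25 of the batch 1 libraries alone and the 2.31 of the batch 2 TLI libraries against untreated. The group means stand 7.24-fold apart. An exon of Tmem189 on the other strand overlaps Cebpb.

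Among the largest increases by fitted value, Fn1, fibronectin, whose gene spans positions 71585520 to 71653200 of chromosome 1, had 128, 134, 74.3 and 163 CPM in the TLI pools and 2 and 3 counts in the untreated pools. The ratio of counts was 1310 with an exact 95% counting interval of 560 to 4030 (edgeR adjusted p = 0.00863), and an exon of Apol7d overlaps Fn1 on the other strand. Vcam1, an adhesion protein of splenic macrophages and stroma, had 238, 119, 60.3 and 31.9 CPM against 1.08 and 0.32 CPM (edgeR adjusted p = 0.0278). Tgfbi, a matrix protein induced by TGF-beta, had 118, 359, 73.6 and 128 CPM against 9.36 and 4.34 CPM, a log2 fold change of 4.85 (standard error 0.72, edgeR adjusted p = 0.00667). Anxa1, annexin A1, had 1892, 867, 424 and 568 CPM against 84.7 and 230 CPM (edgeR adjusted p = 0.0244). No TLI library of these 4 genes reached down to an untreated one.

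Wfdc17, a secreted protein of activated macrophages, had 975 and 753 CPM in the batch 1 TLI libraries, 2035 and 3189 CPM in those of batch 2, and 42 and 73.1 CPM in the untreated libraries (edgeR adjusted p = 0.0123). Ms4a6d, a tetraspan protein of myeloid cells, had 436, 338, 397 and 444 CPM in TLI and 62.4 and 57.5 CPM in untreated libraries. Its fitted log2 fold change was 3.01 (standard error 0.57, edgeR adjusted p = 0.0257), against 2.70 in batch 1 alone and 2.81 for the batch 2 TLI libraries. Ckb, brain creatine kinase, had 107, 305, 66.2 and 31.7 CPM against 21.4 and 15.9 CPM, so that TLI pool 4 was the nearest to the untreated libraries (edgeR adjusted p = 0.0377). Ext1, an enzyme of heparan sulfate synthesis, had 28.8, 26.6, 17.6 and 19.7 CPM against 1.08 and 2.42 CPM (edgeR adjusted p = 0.0420). Mtrf1l, a mitochondrial release factor, had 6.74, 4.86, 1.83 and 6.93 CPM and no count in either untreated library, at least 45-fold higher in TLI against a floor of 3 counts per library (edgeR adjusted p = 0.0125).

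**Figure D3:**
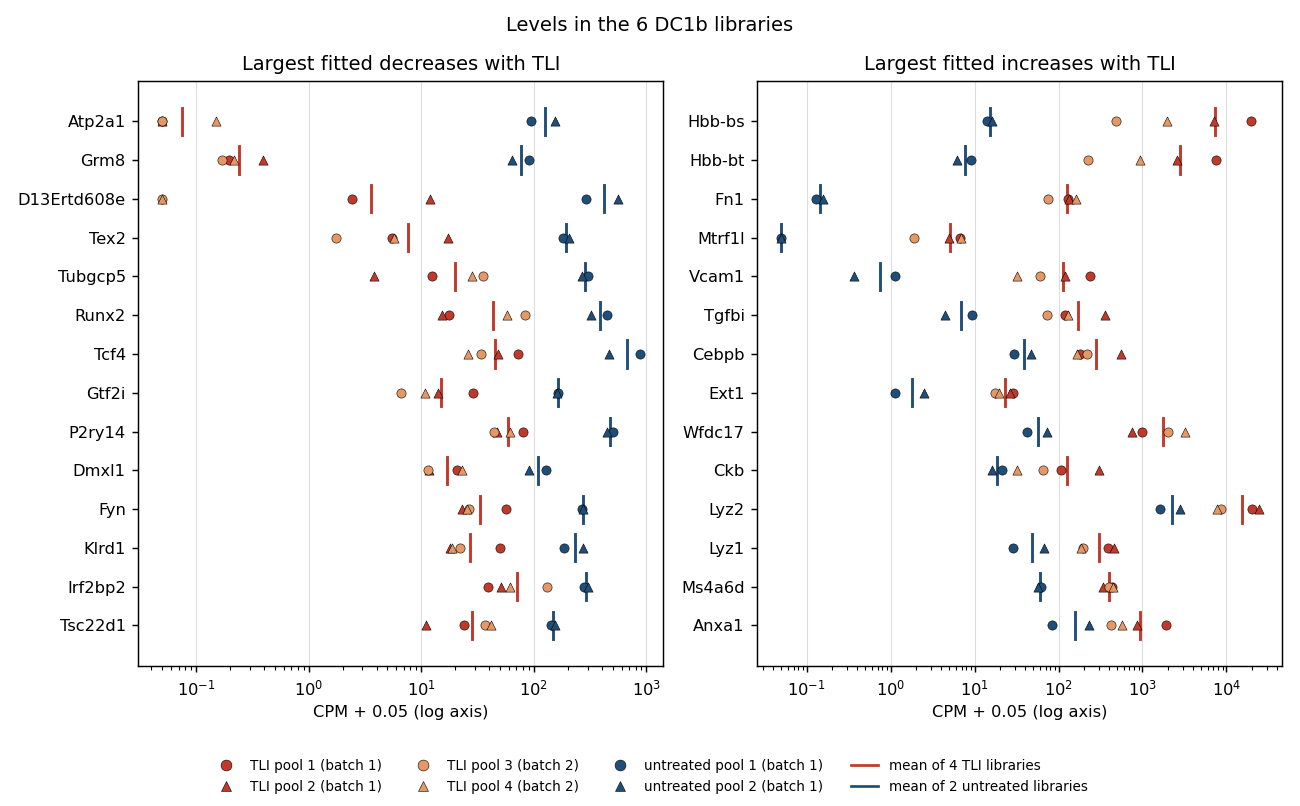
CPM plus 0.05 (horizontal log axis) of the 14 largest decreases (left) and 14 largest increases (right) by fitted value in the 6 DC1b libraries. Red and orange points are the TLI libraries of batch 1 and batch 2, blue points the untreated libraries and vertical strokes the group means. In each gene the TLI points stay on one side of both untreated points, as the rule that chose the genes required.

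Smaller increases were found among genes of high level. Cst3, cystatin C, a protease inhibitor abundant in DC and macrophages, had 31233, 22274, 28535 and 21811 CPM in TLI and 8613 and 10832 CPM in untreated libraries, means of 25963 ± 4663 (SD, n = 4) and 9722 ± 1569 CPM (SD, n = 2), with a log2 fold change of 1.35 (standard error 0.23, edgeR adjusted p = 0.0123). Ifitm3, an interferon-induced membrane protein that hinders virus entry, had 4026, 2608, 3095 and 4586 CPM against 690 and 955 CPM, and its neighbour Ifitm2 had 1332, 887, 1235 and 1185 CPM against 309 and 385 CPM (edgeR adjusted p = 0.00913 and 0.0122). Ccl6, a chemokine of myeloid cells, had 585, 543, 693 and 853 CPM against 125 and 116 CPM, a log2 fold change of 2.08 (standard error 0.28, edgeR adjusted p = 0.00294). The batches of TLI libraries overlapped for Cst3, Ifitm3 and Ifitm2, and for Ccl6 the batch 2 libraries were slightly higher. Ftl1, ferritin light chain, was higher at 13286, 19670, 5936 and 7984 CPM against 4911 and 3643 CPM (edgeR adjusted p = 0.0244), together with the pseudogene copies Ftl1-ps1, Ftl2-ps and Gm15590, which resemble it and whose reads cannot be told apart from it with certainty. Lgals3, galectin-3, had 879, 1306, 561 and 550 CPM against 208 and 289 CPM (edgeR adjusted p = 0.0125). Sat1 (polyamine breakdown), Flna (actin binding), Fgl2, Creg1, Pglyrp1 (peptidoglycan recognition), Unc119 and Rala (a small GTPase) were also past the threshold, with fitted values from 1.28 in Sat1 to 2.22 in Pglyrp1.

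Of the 39 increases, 2 had groups that overlapped. Cd14, the co-receptor for lipopolysaccharide, had 391 and 785 CPM in the batch 1 TLI libraries but 53.9 and 18.2 CPM in those of batch 2, against 22.6 and 53.1 CPM in untreated libraries. Its fitted log2 fold change was 4.11 (standard error 0.79, edgeR adjusted p = 0.0257) and -0.07 for the batch 2 libraries against untreated. Rhd, an erythrocyte membrane protein, had 38 and 184 CPM in batch 1 TLI libraries, 0 and 0.099 CPM in batch 2 and no count in untreated libraries.

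Of the 28 genes of the monocyte and macrophage list, 27 were tested. Past the threshold were 3 (Lyz2, Cd14 and Vcam1), all higher, and 15 were higher at an unadjusted p under 0.05, where 6.15% of all genes tested were, with 0 lower. The median fitted log2 fold change was 3.29 (2.89 with genes held at the floor). The summed level was 26208, 29938, 12004 and 11310 CPM in TLI pools 1 to 4 and 3100 and 4940 CPM in the untreated pools, most of it from Lyz2. C1qa, a complement component of tissue macrophages, had 73.7, 101, 41 and 12.7 CPM against 4.98 and 4.98 CPM (edgeR adjusted p = 0.170). Fcgr1, the high-affinity Fc receptor of monocytes, had 51.5, 92.9, 5.93 and 14.8 CPM and no count in either untreated library, at least 365-fold higher against a floor of 3 counts per library (edgeR adjusted p = 0.103).

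Levels of markers of other blood cells are given beside these, since several were higher in TLI libraries though few genes passed the test. The summed neutrophil list was 24902, 1653, 1983 and 10364 CPM in TLI pools 1 to 4 and 20.6 and 1.99 CPM in the untreated pools. Past the threshold were 0 of 17 tested genes, and 11 were higher at an unadjusted p under 0.05, where 6.15% of all genes tested were. S100a8, a calcium-binding protein of neutrophils, had 5090, 276, 1125 and 5549 CPM against 4.66 and 0.462 CPM (edgeR adjusted p = 0.0741), and Elane, neutrophil elastase, had 562, 77.8, 55.8 and 224 CPM against 4 counts and 0 counts (edgeR adjusted p = 0.0570). In untreated pool 2, 13 of the 18 listed neutrophil genes were at 0, and in untreated pool 1, 6 of them. The erythroid sum was 70028, 24460, 2201 and 7965 CPM in TLI and 87.1 and 120 CPM in untreated libraries. It was not high in DC1b alone, since TLI libraries ranged from 172 to 132873 CPM in DC1a, 1575 to 44933 CPM in DC2 and 353 to 139511 CPM in DC3. For Hbb-bs, the interaction test described below gave an edgeR adjusted p of 0.605 against DC1a, 0.468 against DC2 and 0.795 against DC3. Past the threshold were Hbb-bs, at 19675, 7145, 480 and 1945 CPM against 14.1 and 16.2 CPM (edgeR adjusted p = 0.0377), and Hbb-bt, at 7479, 2603, 225 and 938 CPM against 9.12 and 6.12 CPM (edgeR adjusted p = 0.0405), near copies of adult beta globin. The alpha globin genes Hba-a1 and Hba-a2 followed at an edgeR adjusted p of 0.0514 each. The part that cells of these types take in the higher levels of Lyz2, Cebpb, Fn1 and the other myeloid genes was not tested. Neutrophils carry Lyz2, Anxa1 and Pglyrp1 as well. In TLI pools 1 to 4, Lyz2 was at 20232, 24122, 8631 and 7647 CPM beside the neutrophil sums given above.

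**Figure D4:**
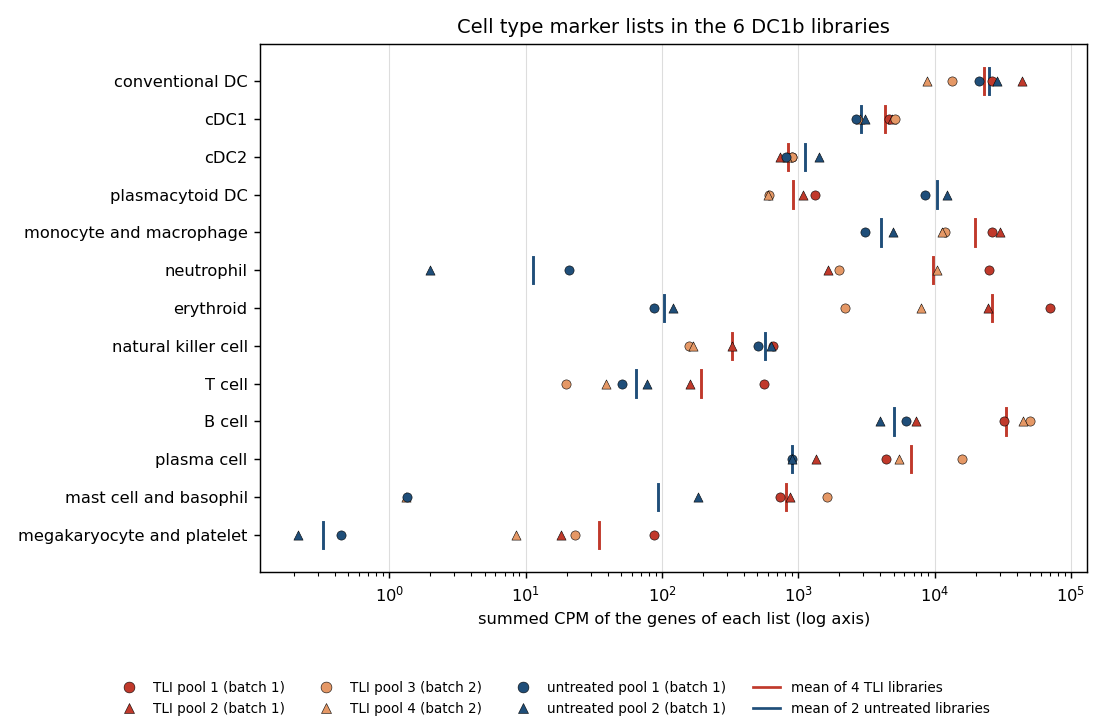
Summed CPM (horizontal log axis) of the genes of 13 cell type marker lists in the 6 DC1b libraries, with libraries as points and group means as vertical strokes. The plasmacytoid DC sum lies at 601 to 1326 CPM in TLI and at 8509 and 12292 CPM in untreated libraries. The monocyte and macrophage, neutrophil, erythroid and B cell sums lie higher in each TLI library, the last mainly from immunoglobulin.

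The B cell sum was 32364, 7301, 49813 and 44755 CPM in TLI pools 1 to 4 and 6187 and 3956 CPM in the untreated pools, with 0 of 15 genes past the threshold. It consisted mainly of immunoglobulin. Of the 15 genes, 2 had all TLI libraries above both untreated ones and 5 had them below, against 8.29% and 11.6% of all genes tested. The median fitted log2 fold change of the list was -0.23 (-0.39 with genes held at the floor). Igkc, the kappa constant region, had 28729, 5750, 44106 and 42164 CPM against 5069 and 2366 CPM (edgeR adjusted p = 0.449), whereas Ms4a1, which encodes CD20, had 21.8, 0.678, 21 and 0.363 CPM against 16.2 and 0 CPM. The plasma cell sum was 4433, 1339, 15776 and 5467 CPM against 897 and 902 CPM, with 0 of 6 genes past the threshold. The natural killer sum was 653, 325, 157 and 169 CPM in TLI pools 1 to 4 and 510 and 625 CPM in the untreated pools. In this list, Klrd1 was lower as given above and Klrk1, the NKG2D receptor, had 160, 103, 111 and 111 CPM against 316 and 348 CPM (edgeR adjusted p = 0.217), while Nkg7 and Ncr1 had 295 and 42.5 CPM in TLI pool 1, 0 CPM each in TLI pool 3 and less than 1 CPM in both untreated libraries.

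The genes of cDC1 were mostly at higher levels in TLI without passing the test. All 16 were tested, 0 passed, and 10 were higher and 1 lower at an unadjusted p under 0.05, where 6.15% and 6.22% of all genes tested were, with a median fitted log2 fold change of 1.41 (1.25 with genes held at the floor). Naaa, an acid amidase, had 459, 837, 427 and 276 CPM in TLI and 133 and 139 CPM in untreated libraries (edgeR adjusted p = 0.0724). Wdfy4, needed for cross-presentation, had 207, 157, 314 and 144 CPM against 53.6 and 75.4 CPM (edgeR adjusted p = 0.153). Batf3, the cDC1 factor, had 97.7, 145, 61.1 and 50.5 CPM against 43 and 37.2 CPM, and Xcr1, the chemokine receptor of cDC1, had 165, 175, 363 and 292 CPM against 94.6 and 61.7 CPM (edgeR adjusted p = 0.206 and 0.364). Tlr3, a sensor of double-stranded RNA, had 61, 46.4, 171 and 58.6 CPM against 18.2 and 8.25 CPM (edgeR adjusted p = 0.237). In each of these 5 genes the TLI libraries were above both untreated ones. The TLI libraries were below both untreated ones for Irf8 and Cadm1. Irf8, which serves both cDC1 and plasmacytoid DC, had 249, 379, 207 and 65.9 CPM against 913 and 779 CPM (edgeR adjusted p = 0.326). Cadm1, an adhesion protein of cDC1, had 96.1, 65.1, 110 and 82.6 CPM against 186 and 262 CPM, yet a fitted log2 fold change of 0.13 with the batch term and -1.46 in the batch 1 libraries alone. Clec9a, the cDC1 receptor for dead cells, overlapped at 213, 148, 194 and 108 CPM in TLI and 213 and 186 CPM in untreated libraries.

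Among 12 genes of cDC2, 0 passed the threshold. Irf4, the factor of this lineage, had 25 and 46.2 CPM in the batch 1 TLI libraries, 0.778 and 1.98 CPM in batch 2 and 62.2 and 77.3 CPM in untreated libraries. Cd209a, a lectin, had 326, 263, 212 and 95.3 CPM against 391 and 920 CPM (edgeR adjusted p = 0.217), and Cd4, borne by many cDC2, had 18.4, 9.76, 15.6 and 1.75 CPM against 125 and 141 CPM (edgeR adjusted p = 0.308). Clec4a2, a lectin of the DCIR family, lay the other way, at 174, 106, 141 and 214 CPM against 36.1 and 34.7 CPM (edgeR adjusted p = 0.170). Of the 8 genes common to conventional DC 0 passed, 5 were fitted higher and 3 lower, and the median was 0.21, but -0.24 with genes held at the floor. Their summed level was 26201, 43436, 13392 and 8792 CPM in TLI pools 1 to 4 and 21308 and 28578 CPM in the untreated pools, so both batch 2 libraries were below the untreated ones. Kmo, an enzyme of tryptophan breakdown, had 47.8, 92.5, 19.4 and 15.8 CPM against 130 and 303 CPM (edgeR adjusted p = 0.275). Itgax, which encodes CD11c, had 128, 101, 224 and 205 CPM against 65.5 and 83.4 CPM, and Zbtb46, their shared factor, had 31.5, 55.4, 66.8 and 19.5 CPM against 9.92 and 5.09 CPM, both short of the threshold (edgeR adjusted p = 0.232 and 0.250).

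The 17 genes of surface proteins stained in the study's flow cytometry held 0 past the threshold, 5 higher and 1 lower at an unadjusted p under 0.05, against 6.15% and 6.22% of all genes tested. Besides Cd8a, Sirpa, Xcr1, Cd4 and Clec9a, these included Itgae (CD103), with 15.6, 20.3, 35.6 and 32.3 CPM in TLI and 0 and 0.96 CPM in untreated libraries, and Cd24a, with 541, 297, 203 and 200 CPM against 49 and 105 CPM. Cdh1, E-cadherin, had 0.819, 0.64, 0.209 and 0 CPM in TLI against 35.4 and 31 CPM in untreated libraries, and Ly6d had 40.9, 16.6, 21.4 and 26.7 CPM against 128 and 226 CPM. Timd4, a phosphatidylserine receptor of macrophages, had 7.27, 20.1, 0.12 and 2.31 CPM and no count in untreated libraries. Itgae, Cd24a, Cdh1, Ly6d and Timd4 did not overlap between groups, and their edgeR adjusted p lay between 0.189 for Timd4 and 0.682 for Cdh1. Of the 17 genes, 5 had all TLI libraries above both untreated ones, 3 had them below and 9 overlapped. Of all genes tested, 8.29% lay above and 11.6% below. Cd207 (langerin) ranged from 84.3 to 443 CPM in TLI around 161 and 158 CPM in untreated libraries, and Btla from 6.99 to 133 CPM against 178 and 99.1 CPM. Havcr2 (TIM-3) ranged from 8.08 to 131 CPM against 128 and 105 CPM, and Ly75 (DEC-205) from 23.7 to 61.4 CPM against 16.6 and 43.7 CPM. The groups of these 4 overlapped, as did those of Itgam (CD11b), with 0.297 to 25.9 CPM against 3.07 and 2.24 CPM, and Cd1d1, with 66.7 to 195 CPM against 72 and 58.4 CPM. Cd40 was at 31.9 to 48.5 CPM against 31.8 and 12.8 CPM, so the lowest TLI library almost touched the higher untreated one.

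The 30 DC transcription factors, of which 29 were tested, held 1 gene higher (Cebpb) and 2 lower (Runx2 and Tcf4) past the threshold, with a median fitted log2 fold change of 0.29 (0.16 with genes held at the floor). Bcl11a, a zinc finger factor upstream of Tcf4 in plasmacytoid DC, had 38.9, 64.5, 11.2 and 34.2 CPM in TLI and 151 and 191 CPM in untreated libraries (edgeR adjusted p = 0.0828), and Cbfa2t3, which partners with Tcf4, had 33.4, 24.1, 46.3 and 36.6 CPM against 124 and 115 CPM (edgeR adjusted p = 0.154). Bcl6, a repressor in conventional DC, had 29, 28.4, 204 and 141 CPM against 18.8 and 13.3 CPM (edgeR adjusted p = 0.230). The highest of these values were those of batch 2. Among growth factor receptors, 0 of 8 passed. Csf2rb2, a beta chain for interleukin-3, had 25.9, 35, 1.14 and 17.4 CPM against 244 and 260 CPM (edgeR adjusted p = 0.0865), while Csf2ra, the GM-CSF receptor chain, had 46.3, 44.1, 157 and 178 CPM against 32.6 and 26.2 CPM and Csf1r, the M-CSF receptor, had 159, 124, 426 and 229 CPM against 41.8 and 69.1 CPM. Flt3, the receptor on which DC depend, overlapped at 127, 119, 37.3 and 20.5 CPM against 95.8 and 146 CPM.

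Pattern recognition, Fc receptor and chemokine genes gave few calls. Of 23 Toll-like receptors and adaptors only Cd14 passed. Cd180, a Toll-like relative of B cells and DC, had 64.6, 36.3, 41.4 and 41.5 CPM in TLI and 113 and 103 CPM in untreated libraries (edgeR adjusted p = 0.0872). Irak1, a kinase of the pathway, had 66 and 58.1 CPM in the batch 1 TLI libraries but 13.8 and 12.3 CPM in batch 2, against 14.5 and 11.5 CPM. Of 9 Fc receptor genes 0 passed, although Fcgr3 had 456, 448, 271 and 416 CPM against 44.7 and 70 CPM (edgeR adjusted p = 0.117). Of 21 chemokines Ccl6 passed. Ccl4, made by activated DC and lymphocytes, was at 1079, 632, 278 and 343 CPM against 1931 and 3284 CPM (edgeR adjusted p = 0.108). Ccl9, of the same family as Ccl6, was at 201, 194, 149 and 231 CPM against 19.3 and 36.4 CPM (edgeR adjusted p = 0.193). Cxcl2, a chemokine for neutrophils, was at 68.5, 102, 65.6 and 51.9 CPM against 14.4 and 15.1 CPM (edgeR adjusted p = 0.125). Il12a, the p35 chain of interleukin-12, had no count in TLI pools 1, 3 and 4 and 13.6 CPM in TLI pool 2, against 103 and 81.6 CPM in untreated libraries (edgeR adjusted p = 0.690).

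Genes that respond to irradiation were examined because of what the treatment's name commonly denotes. Of 31 p53 targets, 30 were tested, 0 passed and 5 were higher at an unadjusted p under 0.05, where 6.15% of all genes tested were, with a median fitted log2 fold change of 0.80 (0.51 with genes held at the floor and 0.28 in the batch 1 libraries). Cdkn1a, the p21 cell cycle inhibitor, had 117, 309, 145 and 25.4 CPM in TLI and 55.5 and 24.5 CPM in untreated libraries (edgeR adjusted p = 0.136). Ccng1, cyclin G1, had 103, 38.5, 84.4 and 177 CPM against 22.9 and 48.5 CPM, and Bax, which promotes cell death, had 96.4, 182, 22.9 and 88.5 CPM against 61 and 50.5 CPM. The groups overlapped for each of these 3 genes. Of 34 cell cycle genes 0 passed, with 7 higher unadjusted, against the same 6.15% of all genes tested, and a median of 1.12 (0.59 with genes held at the floor). In the BCL2 family, the type I interferon-stimulated genes and the interferon gamma-induced genes 0 of 17, 33 and 19 tested genes passed, with medians of 0.87, 0.64 and 1.29 (0.82, 0.40 and 0.80 with genes held at the floor).

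Antigen presentation showed no call in either class. The 13 tested genes of MHC class II presentation had a median of 0.27, but -0.12 with genes held at the floor, and their summed level was 48255, 68017, 23621 and 15999 CPM in TLI pools 1 to 4 and 33901 and 46629 CPM in untreated pools, so both batch 2 libraries were below and TLI pools 1 and 2 above. The 15 genes of MHC class I presentation had a median of 0.94 (0.53 with genes held at the floor). In glycolipid presentation, Gm2a, a lipid transfer protein, had 510, 785, 1125 and 449 CPM against 159 and 302 CPM (edgeR adjusted p = 0.255) and Ctss, cathepsin S, had 2038, 3351, 1856 and 2231 CPM against 1171 and 1947 CPM (edgeR adjusted p = 0.156). Of 82 ribosomal protein genes only Rpl31 passed, lower in TLI but overlapping, while 32 had all TLI libraries above both untreated ones and 1 below, against 8.29% and 11.6% of all genes tested. For 78 genes of oxidative phosphorylation the numbers were 0 past the threshold, 23 above and 1 below. Their medians of 0.13 and 0.14, against 0.09 for all genes, became 0.60 each with genes held at the floor, against 0.12.

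An interaction test in the same fit asked whether the change from untreated to TLI libraries in DC1b differed from that in each other sorted population. A difference in either direction counts, so a gene past the threshold need not have changed more in DC1b. Against DC2, Tcf4 (given below) changed mainly in DC1b. Clec9a changed mainly in DC2, with means of 200 and 166 CPM in untreated and TLI DC1b and 1.24 and 33.1 CPM in DC2. Other populations share mice and, in batch 2, lack untreated libraries as well. Against DC1a cells (CD8hi CD172- by the labels), 7 genes passed (0.0357%), with 1468 at an unadjusted p under 0.05. Against DC2 cells it was 24 (0.122%), with 1714 unadjusted, and against DC3 cells 4 (0.0204%), with 1663 unadjusted. In the 15 batch 1 libraries these became 0 against DC1a, 7 against DC2 and 0 against DC3. Lyz2 was past the threshold against both DC1a and DC3 in the fit of all libraries. Its means in untreated and TLI libraries were 2226 and 15158 CPM in DC1b, 744 and 946 CPM in DC1a, 1763 and 1551 CPM in DC3 and 4676 and 7080 CPM in DC2. The log2 difference of effects was 2.44 (standard error 0.39, edgeR adjusted p = 0.0400) against DC1a, 2.95 (standard error 0.40, edgeR adjusted p = 0.0123) against DC3 and 1.83 (standard error 0.40, edgeR adjusted p = 0.130) against DC2.

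Ccl6 and Ifitm2 differed in the same way from DC1a. Ccl6 went from 121 to 669 CPM in DC1b and from 38.8 to 45.6 CPM in DC1a (log2 difference 2.26, standard error 0.35, edgeR adjusted p = 0.0400), and Ifitm2 from 347 to 1160 CPM in DC1b and from 318 to 280 CPM in DC1a (log2 difference 1.98, standard error 0.33, edgeR adjusted p = 0.0400). Wfdc17, Eef1b2, Bcl6 and Tsc22d1 were the other 4, the last with a negative difference: Tsc22d1 went from 148 to 28.2 CPM in DC1b and from 3.38 to 20.6 CPM in DC1a. Several genes that rose in DC1b also had higher TLI means in DC2. There Ccl6 went from 163 to 687 CPM, Ifitm2 from 640 to 1300 CPM and Wfdc17 from 293 to 4705 CPM. Their interaction tests against DC2 did not pass (edgeR adjusted p = 0.696, 0.496 and 0.549). Fn1 (1.3 to 105 CPM), Vcam1 (1.62 to 141 CPM) and Ms4a6d (198 to 556 CPM) rose in DC2 too. Others, such as Sat1 (2254 to 1742 CPM) and Rala (204 to 128 CPM), fell there. Against DC2, Clec12a went from 1223 to 628 CPM in DC1b and from 191 to 639 CPM in DC2 (log2 difference -2.51, standard error 0.36, edgeR adjusted p = 0.0116), so the populations had nearly equal means under TLI. Tcf4 went from 667 to 44.7 CPM in DC1b and had means of 37.2 and 48.1 CPM in DC2, where the TLI libraries, at 19.5, 40 and 84.9 CPM, lay on both sides of the untreated ones (log2 difference -4.27, standard error 0.80, edgeR adjusted p = 0.0475), and against DC1a and DC3 its differences of -3.46 and -3.03 did not pass (edgeR adjusted p = 0.170 and 0.245). Ly6c2, of plasmacytoid DC and monocytes, went from 1670 to 431 CPM in DC1b and from 18.8 to 109 CPM in DC2 (edgeR adjusted p = 0.0303). The plasmacytoid DC sum lay between 170 and 776 CPM in all 17 libraries of the other populations, so the untreated DC1b libraries, at 8509 and 12292 CPM, were the ones apart and the TLI DC1b libraries, at 601 to 1326 CPM, stood near or above the upper end of that range. Without TLI pool 1, TLI pool 2, untreated pool 1 or untreated pool 2 of DC1b, 0 genes remained past the threshold against DC1a. Against DC3 it was 0 without untreated pool 1, and against DC2 from 5 to 19 in any of the 6 omissions.

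**Figure D5:**
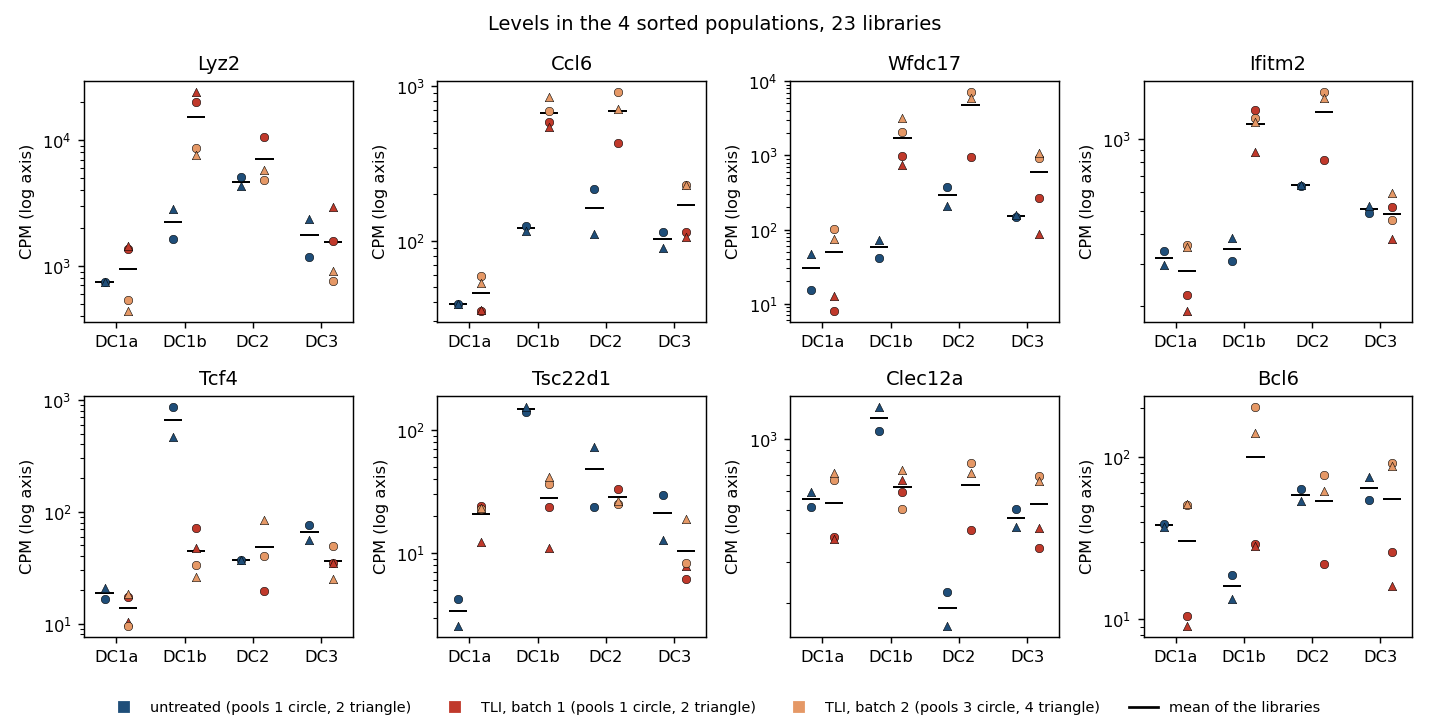
CPM (vertical log axis) of 8 genes in each sorted population, untreated libraries in blue and TLI libraries in red (batch 1) or orange (batch 2), with black strokes at the mean. Lyz2, Ccl6 and Ifitm2 stand higher in all TLI DC1b libraries than in untreated ones, and their means are also higher in TLI than in untreated DC2. Tcf4, at 868 and 465 CPM in untreated DC1b cells, is at 25.9 to 71.6 CPM in TLI DC1b cells.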

How the data were processed

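Dendritic cells sorted from pooled mouse spleens were sequenced from amplified cDNA. The authors trimmed reads with Trimmomatic, aligned them to GRCm38 with HISAT2 and made the deposited estimated counts per gene with StringTie and the Ensembl release 84 annotation. These are whole numbers and were used as they stand, although plain counts had been assumed when the tests were chosen. All 23 libraries, grouped by treatment and population, were fitted in edgeR 4.0.16 (R 4.3.3) with TMM factors, edgeR's default filter on low counts and a term for batch, which TLI libraries of all populations inform. Genes past a Benjamini-Hochberg adjusted p of 0.05 in the quasi-likelihood test were called, and the code was tested on simulated data. DESeq2 1.42.0 and limma 3.58.1 served as alternatives, as did other libraries, filters and scalings. Genes named as the 14 largest in each direction had symbols that are not predicted or pseudogene names, groups that do not overlap, at least 5 CPM in the higher group and one direction in batch 1. Added were the stained surface proteins, defining markers of the cell types and up to 4 members per list by smallest p, and others, such as Il12a, were named after their values were seen. The members and lists were chosen with earlier results of these data known.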

Additional observations from a re-analysis of the deposited data

Results flagged for a closer look

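In DC1b cells of TLI treated mice, 1 library stood apart from the other 3 for several values on the log2(CPM + 1) scale, with a gap over the whole range above Dixon's critical value for 4 samples, which chance exceeds in about 1 in 20 groups. The ratio was 1.0 for Atp2a1 and 0.947 for Irf7 in TLI pool 4, 0.841 for Fyn, 0.864 for Spib and 0.831 for Klrk1 in TLI pool 1, and 1.0 for Il12a in TLI pool 2. For Atp2a1 it rests on 3 counts. The summed mast cell and basophil list, at 732, 862, 1636 and 1.32 CPM in TLI pools 1 to 4 and 1.35 and 185 CPM in the untreated pools, gave 0.878.

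The difference between TLI and untreated libraries in DC1b was itself different from that in another population for the following genes, by edgeR's test of the interaction. Against DC1a the log2 difference was -5.08 for Tsc22d1, 2.26 for Ccl6, 4.76 for Wfdc17, 1.70 for Eef1b2, 2.90 for Bcl6, 1.98 for Ifitm2 and 2.44 for Lyz2. Against DC3 it was 2.95 for Lyz2, 2.92 for Lyz1, 3.60 for ENSMUSG00000089672, which carries no symbol, and -8.69 for Ms4a6d, whose untreated DC3 libraries were at 0, so that this last value is no measure of size.

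Against DC2, the positive log2 differences were 2.79 for Bcl6, 2.97 for Unc119, 2.04 for Itgax, 1.65 for Sat1, 2.55 for Pak1, 2.36 for Rala, 12.63 for Fgd6, 10.51 for Cacnb3 and 17.06 for Arpin. The negative ones were -3.05 for Ahnak, -3.88 for Lgals1, -2.51 for Clec12a, -6.07 for Nucb2, -11.25 for Gm43914, -4.71 for Ly6c2, -2.32 for Trim30a, -4.90 for P2ry14, -12.90 for Gstp2, -10.77 for Cul4b, -9.10 for Cd79b, -5.90 for Klhl6, -4.95 for Clec9a, -4.68 for Ly6c1 and -4.27 for Tcf4. Fitted values near or above 9 in size come from counts at or near 0 in a group and are not measures of size, and Gstp2 has a near copy.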

How the results depend on the processing

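The 81 genes past the threshold became 0 in the 4 batch 1 DC1b libraries, 4 in all 15 batch 1 libraries, 1 and 0 in the 6 DC1b libraries without and with a batch term, 19 in 23 libraries with no batch term, 495 for the batch 2 TLI libraries against untreated, 737 with limma voom, 1263 with DESeq2, 167 with no filter, 156 with at least 10 counts in each DC1b library and, in a fit of 12 group means chosen after seeing the data, 45. They were 82 with RLE factors and 89 with robust estimation. Leaving out each DC1b library in turn gave 3 to 100 genes. The effect in DC1b minus DC1a (7 genes) became 0 in batch 1, 0 with no batch term, 530 with DESeq2, 12 with no filter and 0 to 2 with a library left out. For DC2 (24 genes) these were 7, 8, 769, 34 and 5 to 19, and for DC3 (4 genes) 0, 1, 627, 45 and 0 to 4. Pool numbers name different mice in TLI and untreated groups and do not pair them (correlation of residuals 0.0252). With the pool number as a replicate block, 90 genes passed, and 4, 12 and 4 for DC1a, DC2 and DC3. Among fitted log2 fold changes that turned direction, the batch 2 TLI libraries against untreated gave 0.62 for Tgfbr1, -0.07 for Cd14, -0.0021 for Bax, -0.16 for Cd207, -1.33 for Cd74, -2.48 for Cd8a, -0.40 for Irf7, -4.11 for Ncr1 and -2.86 for Sirpa. Of these only Tgfbr1 and Cd14 had passed the threshold. With no batch term Cd74 was at -0.23 in 6 and in 23 libraries, Cd8a at -0.31 in both and Irf7 at -0.15 and -0.16. Limma voom gave -0.20 for Cd8a. Flt3 was at 0.03 in the batch 1 DC1b libraries, 0.04 in all batch 1 libraries and in the 6 libraries with a batch term, and 0.02 with 12 group means. Ly75 was at -0.0035 with RLE factors, -0.00067 with DESeq2 and -0.03 with the 10 count filter. With a library left out, the ranges were -0.45 to 0.95 for Cd8a, -0.57 to 0.04 for Flt3, -0.77 to 0.05 for Havcr2, -0.53 to 0.87 for Ly75, -0.07 to 11.74 for Ms4a1 and -0.03 to 2.79 for Sirpa. Cadm1, at 0.13, was at -1.46 in the batch 1 DC1b libraries and in the 6 with a batch term, -1.45 in all batch 1 libraries, -1.34 in 6 and in 23 libraries with no batch term, -1.22 for batch 2, -0.88 with limma voom, -1.47 with 12 group means and -0.30 to 0.68 with a library left out. The causes were not tested. Batch 2 holds no untreated library, and genes near 3 counts per library cannot be sized at this depth.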
